A study of Mus musculus with 80 samples.

Results

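The striosome and matrix marker genes Kremen1, Lypd1, Bach2, Rasgrp1, Id4, Rasgrp2, Calb1 and Epha4 were followed here in single neurons of the mouse striatum. They were chosen by name, and all 8 were listed among the 25160 genes of the expression table. Each library was the cDNA of 1 cell sorted from the dorsomedial striatum of adult mice of the strain Drd1a-TdTomatohet;Drd2-EGFPhet. All cells therefore came from animals heterozygous for both reporters, and no wild-type group was included. The study's methods give females aged 8 to 12 weeks and a dye injected to mark the dorsomedial region, and only cells that survived dissociation and sorting were read. Drd1a-TdTomato marks cells in which the dopamine receptor 1 promoter is active, and Drd2-EGFP does so for the dopamine receptor 2 promoter. The labels put 40 cells in the Drd1 group and 40 in the Drd2 group, with no treatment and no compartment given for any cell. Calling a gene a striosome or a matrix gene thus rests on general knowledge and not on these cells.

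The striatum is built of small islands, the striosomes or patches, which lie in a surrounding matrix. Both compartments hold medium spiny neurons (MSN) of the direct pathway, which express Drd1 (D1 MSN), and of the indirect pathway, which express Drd2 (D2 MSN). Striosome neurons are known for limbic inputs and for projections that reach dopamine neurons of the midbrain, whereas matrix neurons receive mostly sensorimotor and associative inputs. Id4, Rasgrp2, Calb1 and Epha4 are counted here as matrix genes, and Kremen1, Lypd1, Bach2 and Rasgrp1 as striosome genes.

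Levels were TPM, a measure of transcripts scaled for gene length and to a fixed total per cell. TPM keep no read number, so how deeply a cell was sequenced cannot be read from them, and a gene can only be said to be listed at 0. A cell was counted for a gene above 1 TPM. In the Drd2 group, 2 cells carried more than 100 TPM of Chat, the enzyme of acetylcholine synthesis. They held 347 and 307 TPM of Chat and were set aside as cholinergic interneurons, which left 40 D1 MSN and 38 D2 MSN. The MSN markers Ppp1r1b, Rgs9, Pde10a, Adcy5, Bcl11b, Foxp1 and Meis2, were each found in more than 50% of the 78 MSN. Between 648 and 8657 genes per MSN were above 1 TPM (median 5506). In 3 MSN fewer than 2000 genes were found. D1 and D2 MSN are named by their reporter label, and 4 of the 40 cells labelled Drd1 held less than 10 TPM of Drd1 transcript. Among them, well B02 of plate FACS086_4, had 648 genes and 1.42 TPM of Ppp1r1b, and well D04 of plate FACS051_5, had 10427 TPM of the astrocyte enzyme Aldoc. All 4 were kept, and values without them are given after the levels. The cells lay on plate FACS051_5 (18 D1 and 16 D2 MSN), plate FACS086_4 (21 and 19) and plate FACS086_9 (1 and 3). The labels tie no cell to an animal, so each group counts as 1 sample, no test was made, and intervals on shares cover counting error only.

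Positions are those of GENCODE M21 on GRCm38. Kremen1 lies at chr11:5191552-5261558, Lypd1 at chr1:125867622-125913101 and Rasgrp1 at chr2:117279993-117343001, all on the minus strand. Bach2 spans chr4:32238804-32586108 on the plus strand. Id4 is a short gene at chr13:48261228-48266026, Rasgrp2 lies at chr19:6399340-6415216 and Calb1 at chr4:15881264-15908064, on the plus strand. Epha4 covers chr1:77367185-77515088 on the minus strand. The 150 bases upstream of the RefSeq start are shown for Id4 and Epha4, the matrix pair that varied together most. They come from RefSeq (GRCm38.p6) and read 5′ to 3′ on the gene's strand. The Epha4 window borders the GENCODE start, and the Id4 window ends 112 bases before it. Both were searched on both strands for CANNTG, the E-box core that E proteins, the partners held back by Id proteins, can bind, and capitals would mark a match.
Id4, chr13:48260966-48261115, plus strand: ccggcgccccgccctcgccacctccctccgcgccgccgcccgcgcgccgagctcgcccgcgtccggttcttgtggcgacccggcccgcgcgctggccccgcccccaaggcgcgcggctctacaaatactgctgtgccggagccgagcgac
Epha4, chr1:77515089-77515238, minus strand: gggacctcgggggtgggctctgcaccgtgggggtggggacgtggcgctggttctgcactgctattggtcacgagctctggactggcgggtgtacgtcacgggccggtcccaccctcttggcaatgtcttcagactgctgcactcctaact
Both windows held 0 matches, which says only that these letters are not in them. Of 32851 mouse promoter windows of the same length, 47.7% held at least 1. GC content was 80.0% for Id4 and 64.7% for Epha4.

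Among the striosome genes, Rasgrp1 was found in most MSN, Lypd1 in about as many as lacked it, and Kremen1 and Bach2 in few. Rasgrp1 encodes a guanine nucleotide exchange factor that activates Ras in response to calcium and diacylglycerol. Its level ran from 0 to 623 TPM in D1 MSN (median 99.5) and from 0 to 540 TPM in D2 MSN (median 97.4). The ranges overlapped almost fully, and 34 of 40 D1 MSN and 32 of 38 D2 MSN were above 1 TPM.

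Lypd1, a member of the Ly6 family of membrane-anchored proteins that modulate nicotinic receptors, split the cells into high and near-empty ones. In D1 MSN it ran from 0 to 345 TPM (median 0.563), and 15 of 40 cells (37.5%, exact interval 22.7 to 54.2%) were above 1 TPM. In D2 MSN the level ran from 0 to 498 TPM (median 2.02), with 21 of 38 cells above 1 TPM (55.3%, interval 38.3 to 71.4%). The higher share in D2 MSN lay within overlapping intervals. The 10 cells with most Lypd1 held 66.0% of all its TPM, and 27 of the 78 MSN exceeded 10 TPM.

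Kremen1, a receptor for Dickkopf proteins in the Wnt pathway, was listed at 0 in 58 of the 78 MSN. Levels reached 25.6 TPM in D1 and 34.9 TPM in D2 MSN, and 6 cells of each subtype were above 1 TPM. The share over both subtypes was 15.4% (interval 8.21 to 25.3%). It was 8.82% on plate FACS051_5 and 22.5% on plate FACS086_4, with overlapping intervals.

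Bach2, a transcription factor that pairs with small Maf proteins, was above 1 TPM in 2 D1 and 3 D2 MSN, 6.41% of all (interval 2.11 to 14.3%). Its highest values were 29.7 and 34 TPM. With 99.2% of its summed TPM in 10 cells, each value of Bach2 below rests on a handful of neurons, as does Kremen1 with 95.6%.

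The matrix genes were each above 1 TPM in more than 50% of the MSN. Calb1, the calcium buffer calbindin, was the only member above 1 TPM in all 78 MSN, which allows a share from 95.4% upwards. It ran from 5.51 to 1016 TPM in D1 MSN (median 225) and from 22.6 to 1728 TPM in D2 MSN (median 253). No cell of either subtype lacked it, although calbindin protein is a standard label of the matrix.

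Rasgrp2, an exchange factor for the small G protein Rap, ran from 0 to 812 TPM in D1 MSN (median 87.7). In D2 MSN it reached 1777 TPM, the highest level of any member in any MSN, with a median of 58.5. The numbers above 1 TPM were 33 of 40 D1 and 31 of 38 D2 MSN, so the groups overlapped throughout.

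Epha4, a receptor tyrosine kinase for ephrins that guides axons, ran from 0 to 394 TPM in D1 MSN (median 38.0) and from 0 to 431 TPM in D2 MSN (median 66.5). It was above 1 TPM in 31 and 30 cells, so that the shares of 77.5% and 78.9% lay side by side.

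Id4, a dominant-negative partner of basic helix-loop-helix transcription factors, was the matrix gene with the most empty cells, 29 of 78 at 0. It ran from 0 to 989 TPM in D1 MSN (median 24.3) and from 0 to 607 TPM in D2 MSN (median 1.67). Of 40 D1 MSN, 24 were above 1 TPM (60.0%, interval 43.3 to 75.1%), and of 38 D2 MSN, 20 were (52.6%, interval 35.8 to 69.0%). The cells fell apart as for Lypd1, with 39 MSN above 10 TPM and few between 1 and 10 TPM. Astrocytes also express Id4, and 1 D1 cell, the well D04 named above, held 2.03 TPM of Drd1 and 274 TPM of Id4. The summed TPM of 5 astrocyte markers (Aqp4, Gja1, Slc1a3, Aldh1l1 and Aldoc) was 13081 there and at most 17.6 in the other D1 MSN and 45.5 in D2 MSN. Without that cell the mean of Id4 in D1 MSN was 110 TPM, against 115 TPM with it.

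Without the 4 cells labelled Drd1 that held less than 10 TPM of Drd1, 36 D1 MSN remained. Rasgrp1 was then above 1 TPM in 33 of them (91.7%, median 106 TPM), Rasgrp2 in 31 (86.1%, median 92.3 TPM), Epha4 in 30 (83.3%, median 39.4 TPM) and Calb1 in all 36 (median 237 TPM). Id4 was above 1 TPM in 21 (58.3%, median 19.7 TPM), Lypd1 in 14 (38.9%, median 0.584 TPM), Kremen1 in 6 and Bach2 in 2. Each share lay within the interval that all 40 cells gave.

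**Figure D1:**
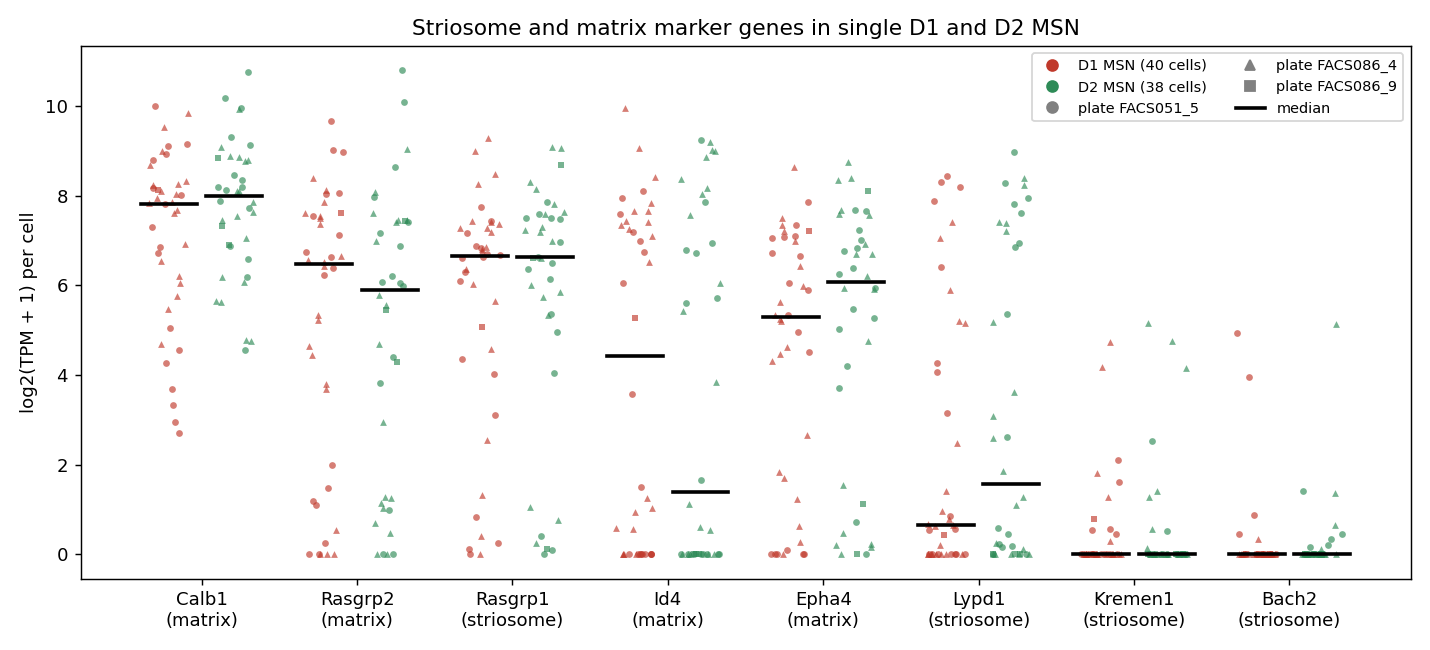
Level of each marker gene per cell as log2(TPM + 1), with D1 MSN in red, D2 MSN in green, a marker shape for each plate and a black line at the group median. Calb1 is above 0 in all 78 cells, Id4 and Lypd1 split into cells near 0 and cells far above, and Kremen1 and Bach2 lie at 0 in most cells.

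**Figure D2:**
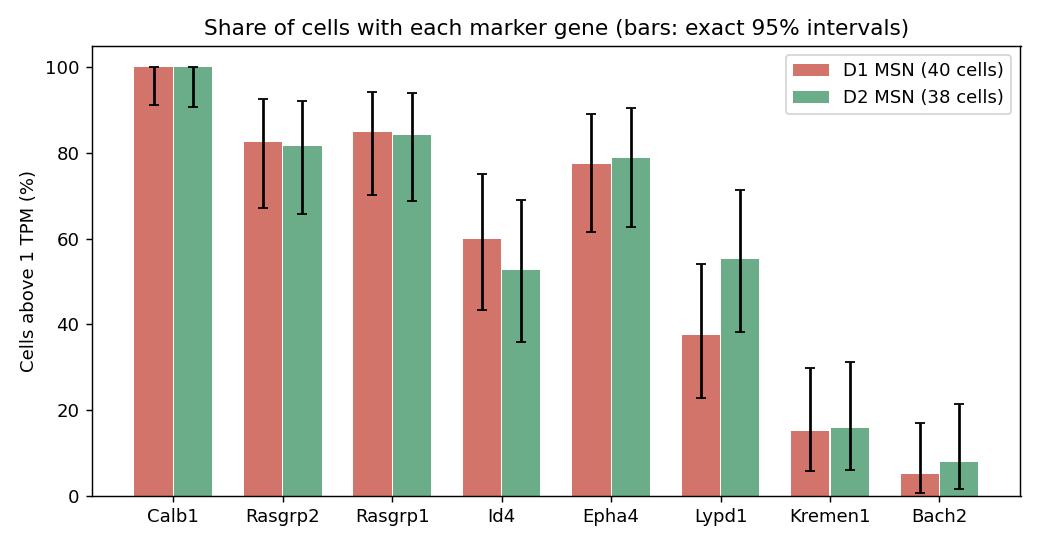
Percent of D1 MSN (red, 40 cells) and D2 MSN (green, 38 cells) above 1 TPM for each marker gene, with exact 95% intervals as error bars. The intervals of D1 and D2 MSN overlap for every gene, and Lypd1 has the widest gap, 37.5% against 55.3%.

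Ordered by mean TPM over the 78 MSN, Calb1 (299) was followed by Rasgrp2 (148), Rasgrp1 (126), Id4 (117), Epha4 (83.4), Lypd1 (60.0), Kremen1 (1.80) and Bach2 (1.08). The order was the same within D1 and within D2 MSN. The SD over cells, 306 TPM for Calb1, 263 for Rasgrp2, 134 for Rasgrp1, 186 for Id4 and 110 for Lypd1, exceeded the gap to the next gene at each step. Neighbours in this order therefore overlapped within the spread of single cells, which is wide for genes held by few cells. By the share of cells above 1 TPM, Lypd1 (46.2%, interval 34.8 to 57.8%) and Kremen1 (15.4%) nevertheless had intervals that did not meet. Among all listed genes the mean of Calb1 lay at the 98.9th percentile, that of Epha4 at the 94.6th and that of Kremen1 at the 45.5th.

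None of the marker genes differed 2-fold or more between D1 and D2 MSN. The difference was taken as the log2 ratio of the mean TPM plus 1, which understates differences of low genes. Among the 19966 genes above 0 in both groups, 24.3% passed that mark, 14.2% higher in D1 and 10% higher in D2 MSN. Among the 7500 genes averaging 10 TPM or more, 20.5% did (11.7% higher in D1 and 8.85% in D2 MSN). For a set of 8 genes, 0 past the mark is fewer by less than 2 genes than those shares would give, and nothing is read from it. Of the 8 values, 7 were below 0, with a median of -0.37, while 44.9% of all genes were below 0 and their median was 0.05. The count was 5 of 8 when log2 values were averaged in place of TPM, 5 without plate FACS051_5 and 6 without plate FACS086_4.

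Lypd1 had the most negative log2 ratio, -0.80 (mean 43.8 TPM in D1 and 77.1 TPM in D2 MSN). Within plates it was -0.58 on FACS051_5 and -1.53 on FACS086_4, the same direction on both. Without plate FACS051_5 it passed 2-fold, at -1.38. Epha4 was at -0.51 pooled, -0.22 and -0.80 within the plates (means 68.9 and 98.7 TPM). These gaps stayed below the spread of single cells, 93.3 and 125 TPM (SD) for Lypd1 in D1 and D2 MSN.

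Calb1 was at -0.44 pooled, but at -0.93 on FACS051_5 and 0.00 on FACS086_4, so the difference was seen on 1 of the large plates. Rasgrp2 was at -0.30 pooled, -0.64 and 0.09 within the plates, and turned to 0.20 when log2 values were averaged in place of TPM, its median being higher in D1 MSN. Rasgrp1 stood at -0.22, with -0.33 and -0.09 within the plates. Id4 had a ratio near 0, -0.06, with -0.30 and -0.10 within the plates, and likewise turned to 0.39 with averaged log2 values.

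Kremen1 was at -0.48 pooled, 0.05 on FACS051_5 and -0.71 on FACS086_4, and thus turned direction between plates. Bach2 was at 0.08 pooled but 1.60 and -1.52 within the plates. Without plate FACS051_5 the ratio of Bach2 was -1.39, and without plate FACS086_4 it was 1.57. Both signs rest on 5 cells above 1 TPM in all.

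**Figure D3:**
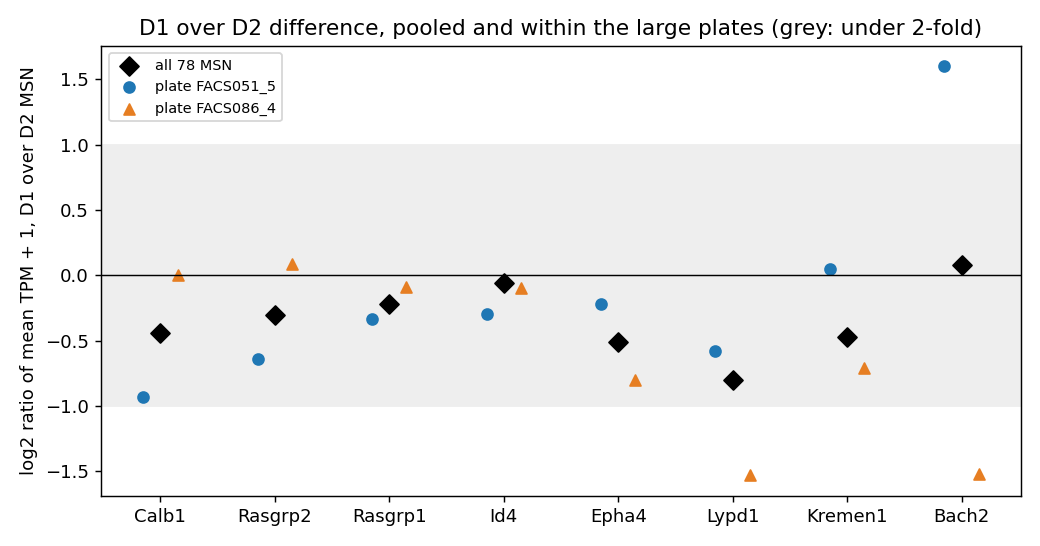
Log2 ratio of mean TPM + 1 in D1 over D2 MSN for each marker gene, over all 78 MSN (black diamonds) and within the plates FACS051_5 (blue circles) and FACS086_4 (orange triangles), with the range under 2-fold in grey. All black diamonds lie inside the grey band, and outside it are only Lypd1 on FACS086_4 and Bach2 on both plates, in opposite directions.

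Members of both classes were found together in most cells. At least 1 striosome and at least 1 matrix gene were above 1 TPM in 70 of 78 MSN. All 4 matrix genes were found in 37 MSN, and all 4 striosome genes in 0. No striosome gene was found in 8 MSN, 4 of each subtype. Since Calb1 was found in every MSN and Rasgrp1 in most, these counts largely follow from those genes alone.

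To see which genes varied together, Pearson's r was taken across the 78 MSN on log2(TPM + 1), centred within each subtype and plate. Cells share plate and library preparation and differ in how many genes were found, so r is given as a description. All 6 pairs of matrix genes were above 0, from 0.15 to 0.36 (median 0.24). The 6 striosome pairs ran from -0.12 to 0.17 (median 0.10) and the 16 mixed pairs from -0.15 to 0.38 (median 0.03). Over 42241836 pairs of 9192 genes found in at least 20% of MSN, the median was 0.08, with 5th and 95th percentiles of -0.13 and 0.29, and 73.4% of the pairs were above 0.

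The matrix genes also followed the number of genes found in a cell. That r was 0.46 for Calb1, 0.44 for Id4, 0.42 for Epha4 and 0.35 for Rasgrp2, against 0.55 for Rasgrp1, 0.25 for Kremen1, 0.19 for Bach2 and 0.12 for Lypd1. Once the number of genes found was regressed out, the medians were 0.08 for matrix pairs, -0.00 for striosome pairs and -0.08 for mixed pairs, with 0.00 over all pairs. Within plates the matrix median was 0.31 on FACS051_5 and 0.25 on FACS086_4, and the striosome median 0.12 and 0.07. In D1 MSN alone the matrix median was 0.37, and in D2 MSN alone 0.12.

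Id4 and Epha4 were the matrix pair with the highest r, 0.36. It was 0.32 and 0.41 on the large plates, 0.38 in D1 and 0.33 in D2 MSN, and 0.21 after regressing out the genes found. Both were above 1 TPM in 39 MSN, against 34.4 from the product of their shares. Rasgrp2 and Epha4 went together in D1 MSN (r 0.60) and not in D2 MSN (r -0.21). The same pair also differed by plate, with 0.52 on FACS051_5 and -0.06 on FACS086_4, and neither difference was tested.

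Across the classes, the striosome gene Rasgrp1 and the matrix gene Calb1 had an r of 0.38, the highest of all 28 pairs. Within the plates it was 0.49 and 0.29, and after regressing out the genes found 0.18. Lypd1 had an r below 0 with all 4 matrix genes, from -0.15 with Rasgrp2 to -0.00 with Calb1. Lypd1 and Id4, the members that split the cells most, were both above 10 TPM in 10 MSN, against 13.5 from the product of their shares (r -0.13, -0.27 on FACS051_5 and -0.01 on FACS086_4).

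Further genes known from the compartments were set beside the members, 10 of striosomes (Oprm1, Sema5b, Tshz1, Nr4a1, Pdyn, Tac1, Sema7a, Khdrbs3, Kcnip1 and Kcnt1) and 5 of the matrix (Gda, Stxbp6, Gucy1a3, Sv2b and Sgk1). The matrix members had a median r of 0.21 with the other matrix genes and -0.00 with the other striosome genes. For the striosome members these medians were 0.08 and 0.12. Id4 had an r above 0 with all 5 other matrix genes (median 0.24), as had Calb1 (0.22), and Epha4 had a median of 0.23. Of the 9191 genes compared, at least 67.5% were above 0 with Id4 and at least 81.9% with Calb1. Nothing is therefore read from those counts of 5. The median of Rasgrp2 was 0.06, with 0.31 in D1 and -0.21 in D2 MSN. With the 10 other striosome genes, Id4, Epha4 and Rasgrp2 were each below 0 for 6, at medians of -0.11, -0.04 and -0.04. The lowest r was -0.35 for Id4, -0.14 for Epha4 and -0.13 for Rasgrp2. After regressing out the genes found, the medians with matrix genes were 0.09 for Id4, 0.15 for Calb1, 0.10 for Epha4 and -0.02 for Rasgrp2. With the striosome genes they were then -0.23 for Id4, -0.01 for Calb1, -0.09 for Epha4 and -0.07 for Rasgrp2.

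Id4 ran opposite to Khdrbs3, an RNA-binding splicing regulator, with an r of -0.35, place 2 from the lowest among 9191 genes compared with Id4. Tshz1, a zinc finger transcription factor, stood at place 4 with -0.32. Pdyn, the precursor of dynorphin, stood at place 12 with -0.28, and Tac1, the precursor of substance P, at place 97 with -0.18. For Pdyn, found in 22 D1 and 2 D2 MSN, the r was -0.40 in D1 and 0.12 in D2 MSN. These 4 genes of the list thus lay near the low end of all genes. Above 0 lay Kcnt1 (0.21), Kcnip1 (0.20, found in 1 cell), Nr4a1 (0.07) and Sema7a (0.06).

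The opposite course of Id4 and Khdrbs3 was seen in D1 MSN (-0.40) and D2 MSN (-0.30) and on both large plates (-0.38 and -0.34). It was -0.50 after regressing out the genes found, and -0.28 as Spearman's rho. By presence alone little of it was seen, since both genes were above 1 TPM in 17 MSN, against 19.2 from the product of their shares.

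With Sema5b, a semaphorin found in 11 MSN, Id4 shared 1 cell above 1 TPM, against 6.21 from the product of their shares (r -0.33). On the plates r was -0.44 and -0.23. Id4 and Tshz1 shared 7 cells against 11.3, with an r of -0.12 on FACS051_5 and -0.50 on FACS086_4. The r of Id4 with Khdrbs3, Sema5b and Tshz1 stayed below 0 in each subtype and without the 4 D1 cells that had less than 10 TPM of Drd1.

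On the matrix side, Id4 had an r of 0.36 with Sgk1, a serum- and glucocorticoid-regulated kinase (0.37 and 0.36 on the plates), and both were above 1 TPM in 23 MSN against 17.5. With Sv2b, a synaptic vesicle protein, it was 0.28. Epha4 had an r of 0.36 with Gucy1a3, a subunit of the nitric oxide receptor guanylyl cyclase (0.24 and 0.41). Calb1 had an r of 0.39 with Gda, guanine deaminase (0.50 and 0.25). Each matrix gene of the members therefore had a different partner at the top of this list, while Rasgrp2 reached 0.22 at most. After regressing out the genes found, the r of Id4 was 0.24 with Sgk1 and 0.10 with Sv2b. That of Epha4 with Gucy1a3 was then 0.26, and that of Calb1 with Gda 0.24.

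Lypd1 had an r above 0 with 8 of the 10 striosome genes (median 0.16), and a median of -0.01 with the 5 matrix genes. Of the 9191 genes compared with Lypd1, between 58.2% and 66.0% were above 0. Among the 8 was Kcnip1 (0.28), found in 1 cell. On FACS051_5 the striosome median was 0.26 and the matrix median 0.01, but on FACS086_4 they were 0.03, with 5 of 10 above 0, and 0.09. In D2 MSN they were 0.02 and 0.05, so the higher striosome median was seen on 1 large plate and in D1 MSN (0.28 against 0.01). Lypd1 and Tshz1 had an r of 0.25, 0.35 on FACS051_5 and 0.14 on FACS086_4, and were found together in 14 MSN against 9.23. For Lypd1 and Sema5b the cells with both numbered 9 against 5.08 (r 0.17, 0.27 and -0.04 on the plates). Rasgrp1 was above 0 with all 10 striosome and all 5 matrix genes, as it was with at least 83.6% of the 9191 genes compared. Its medians were 0.15 and 0.16, but 0.11 and -0.03 after regressing out the genes found. Kremen1 and Bach2 had medians of 0.05 and 0.10 with the striosome genes, on 12 and 5 cells above 1 TPM.

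**Figure D4:**
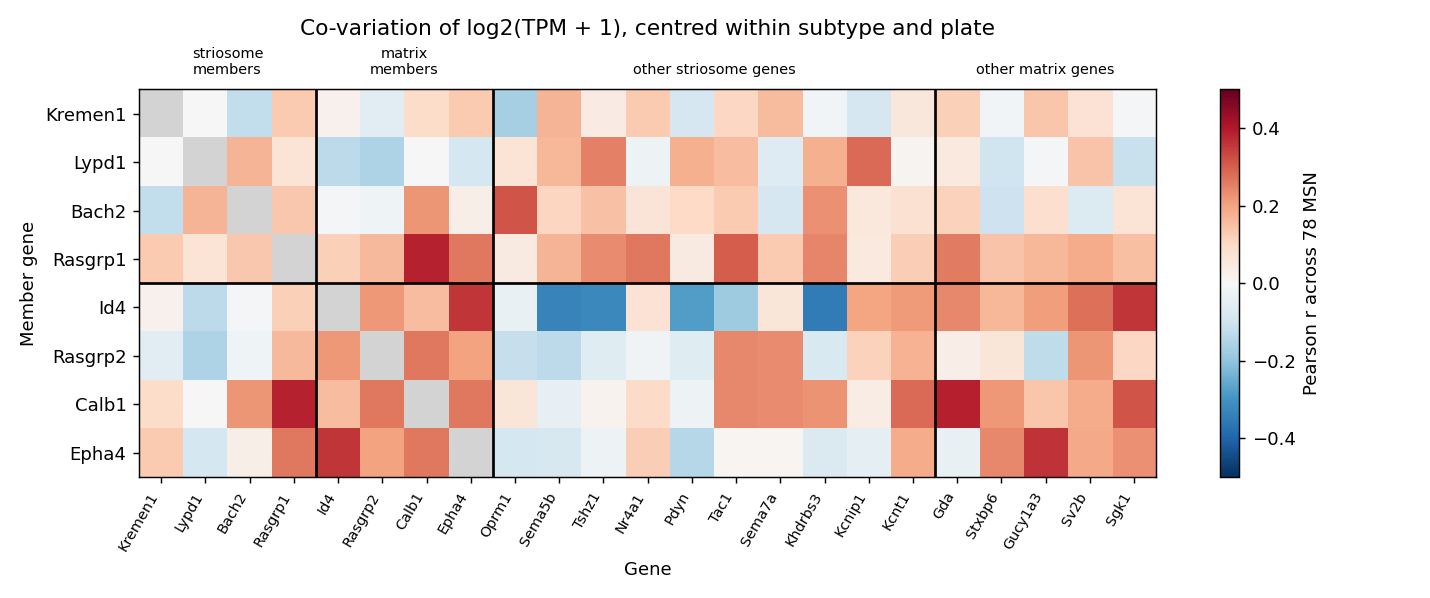
Pearson's r across 78 MSN, on log2(TPM + 1) centred within subtype and plate, between each marker gene (vertical axis) and the members and other compartment genes (horizontal axis), red above 0 and blue below 0, with grey for a gene with itself. Id4 is blue with Sema5b, Tshz1, Pdyn and Khdrbs3 and red with Epha4 and Sgk1, while Rasgrp1 is red throughout apart from itself.

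**Figure D5:**
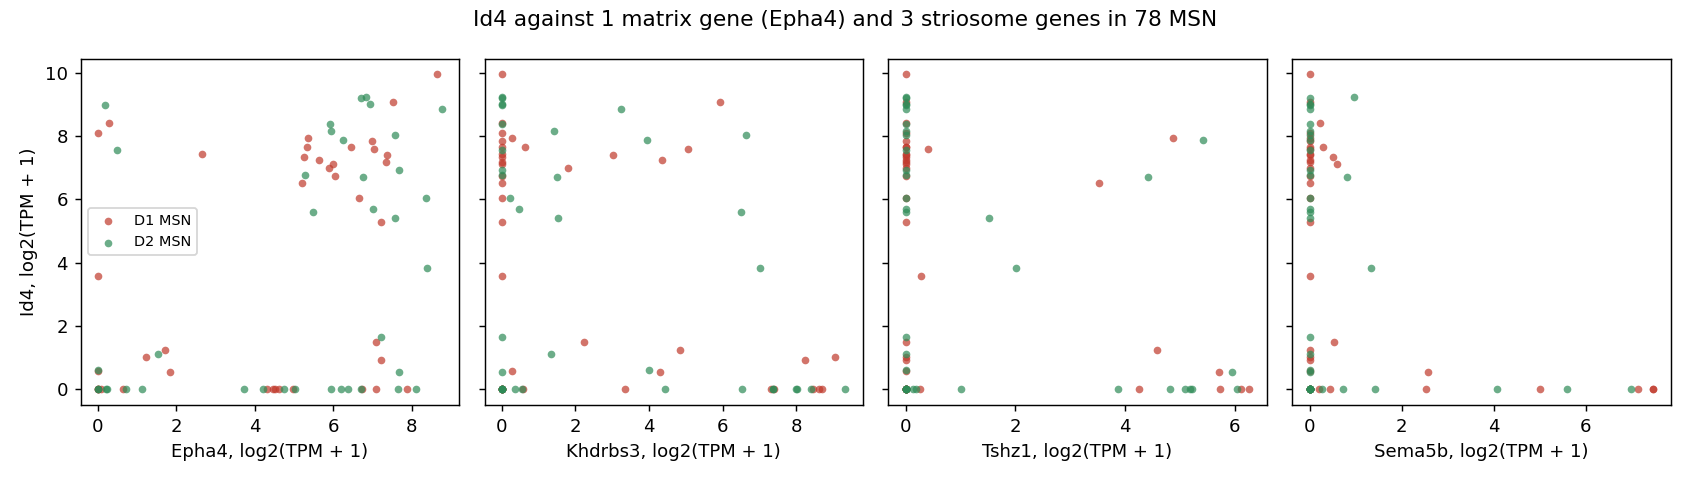
Id4 (vertical axis) against Epha4, Khdrbs3, Tshz1 and Sema5b (horizontal axes) as log2(TPM + 1) in single D1 MSN (red) and D2 MSN (green). Cells with much Id4 mostly have much Epha4, and cells with much Sema5b or Tshz1 mostly lie at or near 0 for Id4, with 1 and 7 cells above 1 TPM for both genes.

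Between D1 and D2 MSN, 3 of the 10 other striosome genes were more than 2-fold higher in D1 and 1 in D2 MSN. Of the 5 other matrix genes, 0 were higher in D1 and 2 in D2 MSN by that mark. Among the 19966 genes above 0 in both groups, 24.3% passed it in either direction. Lists of 10 and 5 genes are too short to be set against that share, and no trend of a class is read from them. Past 2-fold with the same direction on both large plates were Pdyn (156 against 0.218 TPM) and Tac1 (1478 against 69.5 TPM). The same held for Oprm1, the mu opioid receptor (1.62 TPM in D1 against 8.87 TPM in D2 MSN). It was above 1 TPM in only 3 D1 and 8 D2 MSN. The matrix genes Gda (19.4 TPM in D1 against 49.2 TPM in D2 MSN) and Gucy1a3 (49.7 against 120 TPM) were also past 2-fold pooled. Both were higher in D2 MSN on both large plates. On FACS051_5, however, Gucy1a3 stayed under 2-fold (log2 ratio -0.62, against -1.53 on FACS086_4). Gda was nevertheless above 1 TPM in 29 D1 and 23 D2 MSN, with highest values of 76.7 and 286 TPM. Sema5b was 2-fold higher in D1 MSN pooled but turned direction between the plates (2.56 and -2.56 on the log2 scale). Nr4a1, Kcnt1 and Sv2b were found in at least 50% of MSN and differed less than 2-fold, with log2 ratios of 0.30, -0.13 and -0.27.

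The known partners of the members were also measured. For Rasgrp1 and Rasgrp2, the small G proteins differed in how widely they were found. Hras was above 1 TPM in 69 MSN, Nras in 44 and Rap1a in 18. Rap1gap, a GTPase-activating protein for Rap and not itself a small G protein, was found in 63. Nras (log2 ratio 1.51) and Rap1a (1.23) were past 2-fold pooled, both higher in D1 MSN. Within the large plates Nras was at 1.40 on FACS051_5 and 1.64 on FACS086_4. Rap1a was at 0.07 and 4.42, so its pooled ratio was seen on 1 large plate, with 11 D1 and 7 D2 MSN above 1 TPM. Rasgrp3 and Rasgrp4, the paralogs, were found in 3 and 6 MSN.

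Of the ephrins that bind Epha4, 7 were listed, and Efnb3 was found in 47 MSN and Efnb2 in 34. Efnb2 had a log2 ratio of 1.15, higher in D1 MSN on both plates, and Efnb3 one of -0.22. Ligands of the A class were sparse, with Efna3 in 19 MSN and Efna5 in 8.

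Among the E proteins that Id4 can bind, Tcf4 was found in 46 MSN, Tcf12 in 31 and Tcf3 in 8. Tcf4 was higher in D2 MSN (-1.23) and Tcf12 in D1 MSN (1.39), each on both plates. The relatives Id1, Id2 and Id3 were found in 1, 2 and 1 of 78 MSN. The cell D04 of plate FACS051_5 held 306 TPM of Id1, 3693 TPM of Id2 and 503 TPM of Id3, beside the astrocyte markers given above. No other MSN held more than 1 TPM of Id1 or Id3.

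Of the Wnt-pathway partners of Kremen1, the coreceptor Lrp6 was found in 44 MSN. Its log2 ratio of -0.93 turned direction between the plates (0.39 on FACS051_5 and -2.23 on FACS086_4). Dkk2 was found in 23 MSN, with a log2 ratio of 1.18 (1.64 on FACS051_5 and 0.55 on FACS086_4). Its means were 3.09 TPM in D1 and 0.805 TPM in D2 MSN. The highest D1 cell held 77.2 TPM, so the pooled ratio leans on that cell. Lynx1, a relative of Lypd1, was found in 39 MSN (0.72), while the nicotinic subunits Chrna4, Chrna7 and Chrnb2 were found in 9, 5 and 26. The Bach2 partner Mafg was found in 24 MSN (1.02 pooled, 0.65 on FACS051_5 and 1.13 on FACS086_4).

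The genes whose pattern was most like that of each member were ranked among the same 9192 genes. For Rasgrp1 these were Prkcb (r 0.67, 0.68 and 0.60 on the plates), Ank3 (0.63) and Anks1b (0.63). For Id4 they were Cpa6, Kcnq3 and Camk2n1, all at 0.58. Next to Calb1 came Htr1b (0.56), 4930511M06Rik (0.55) and Fscn1 (0.54), and next to Epha4 Actn2 (0.55), Sh3glb2 (0.55) and Pum2 (0.53). Rasgrp2 had Syt7 (0.57), Ptprn (0.49) and Gm26905 (0.48). After regressing out the genes found, these r were lower, from 0.44 to 0.48 for Rasgrp1 and from 0.42 to 0.44 for Id4. They were then 0.37 to 0.44 for Calb1, 0.39 to 0.47 for Epha4 and 0.36 to 0.50 for Rasgrp2. No member was among the nearest genes of another.

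For the rarer members these r rest on the few cells that held them. For Lypd1 they were Srp54a (0.55, 0.61 and 0.47 on the plates), Ralyl (0.47) and Ngrn (0.44). Kremen1 had 9930111H07Rik (0.56), Ggt7 (0.53) and Gpd2 (0.49, but 0.06 on FACS051_5). Bach2 had Taok2 (0.62), RP23-292C5.8 (0.55) and Dph3 (0.50).

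Genes on the opposite strand overlap 4 of the members, and whether reads were assigned by strand is not given in the sources used here. Gpr39 overlaps Lypd1 and was found in 6 MSN, 5 of them with Lypd1. The overlapping A330033J07Rik was found in 6 MSN, 5 of them with Id4, and Gm14965 in 6, all with Rasgrp2. The partners at Bach2 (Bach2os) and, for Id4, Gm49291 were not among the listed genes. Reads of the members and of these genes cannot be told apart where they overlap.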

How the data were processed

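Single cells were dissociated from the dorsomedial striatum and sorted by FACS, and cDNA was made from 1 cell per well with the SMARTer kit. The values used are TPM per gene and cell, deposited by the authors. The submitters' processing notes name STAR 2.5.0, featureCounts 1.5.1 and the builds mm10 and GRCm38, and how the TPM were made is not given in the sources used here. Depth per cell is therefore unknown. The listed genes of a cell summed to between 506588 and 958040 TPM. The study used 3 animals, which no label ties to cells or plates, so each group was 1 sample and no p-value was computed. Columns left unused numbered 0.

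The members and the gene lists were chosen with earlier results of these data known, and so was the Chat limit of 100 TPM. Shares above 1 TPM carry exact Clopper-Pearson 95% intervals. Log2 ratios compare mean TPM plus 1. Pearson's r was taken on log2(TPM + 1), centred within group and plate, and a second time on residuals after a straight line on the number of genes found. The value named "product of their shares" is the number of cells expected to hold both genes if each were placed regardless of the other. Values were given for the 8 members, for listed related genes past 2-fold with the same direction on both large plates or found in at least 50% of MSN, and for the 3 genes of highest r per member. Other related genes were named after their values were seen. These were Khdrbs3, Tshz1, Sema5b, Sema7a, Sgk1, Kcnip1, the nicotinic subunits, Rasgrp3, Rasgrp4, Tcf3, Efna3, Efna5 and Id1 to Id3. A total of 53 alternatives were set out, and more were added after seeing the data, on correlations, on the direction of the ratios and on the cells with little Drd1. Some genes of the related and marker lists are not reported here. The steps were tested on simulated data. Scripts ran in Python 3.11.15 with pandas 2.3.3 and numpy 2.4.6, intervals were made with scipy 1.17.1, and figures with matplotlib 3.10.9.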

Additional observations from a re-analysis of the deposited data

Results flagged for a closer look

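The 2 cholinergic interneurons, set aside from the comparisons, held Rspo3, a secreted activator of Wnt signalling in the list of Kremen1 partners, at 14.5 TPM (well A08 of plate FACS051_5) and 4.61 TPM (well B02 of the same plate). It stands out because it was listed at 0 in all 78 MSN. Both cells come from 1 plate, and no other cell exceeded the Chat limit.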

How the results depend on the processing

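Of 209 values recomputed, 174 moved by less than their spread and 35 by more. Where the plates differ the spread is wide, so a value counted among the 174 could still turn direction. Without plate FACS051_5 the log2 ratio of Rasgrp2 went from -0.30 to 0.18 and that of Calb1 from -0.44 to 0.02. That of Bach2 went from 0.08 to -1.39. The 174 are therefore not read as a measure of stability. The number of members past 2-fold was 2 without plate FACS051_5 (Lypd1 and Bach2) and 1 without plate FACS086_4 (Bach2), and 0 under the other alternatives, including without the D1 cells below 10 TPM of Drd1. The striosome median r was -0.00278 on residuals, 0.0620 without plate FACS051_5, 0.0643 without cells under 2000 genes and 0.0597 without those D1 cells, an alternative added after seeing the data. The matrix median was 0.0812 on residuals, 0.37 in D1 and 0.12 in D2 MSN, and 0.19 with a pseudocount of 10 TPM. The mixed median was 0.0501 not centred, -0.0799 on residuals, 0.0897 in D1 and 0.0560 in D2 MSN, 0.0755 without plate FACS051_5 and 0.0595 without plate FACS086_4. Shares depend on the limit: Lypd1 was above 0 in 67.9% and above 10 TPM in 34.6% of MSN. Without plate FACS086_4 the share of Kremen1 was 7.89% and the log2 ratio of Kremen1 turned to 0.13. No paired analysis was possible because each group is 1 sample and no test was made. The plates hold cells of both groups, and the ratios within the large plates stand beside the pooled ones.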

Other observations

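The 2 cholinergic interneurons held matrix and striosome members in part. Calb1 was at 318 and 223 TPM, within the range of the MSN, Epha4 at 61.6 and 138 TPM and Rasgrp1 at 42.9 and 27.1 TPM. Rasgrp2 was at 7.61 and 0.231 TPM and Lypd1 at 0 and 17.3 TPM. Id4, Kremen1 and Bach2 were listed at 0 in both cells. Khdrbs3, opposite to Id4 among MSN, was at 178 and 92.6 TPM there.

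Among the cells that stood apart, the D1 cell B02 of plate FACS086_4, with 648 genes found and 1.42 TPM of the MSN marker Ppp1r1b, held 119 TPM of Calb1 and less than 1 TPM of each other member.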
